A study of Mus musculus with 12 samples.

Results

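The genes described here are 10 costimulatory and coinhibitory ligands and partners of antigen-presenting cells: Cd80, Cd86, Cd40, Cd83, Cd274, Pdcd1lg2, Cd200, Il12b, Il15 and Traf1. They were taken by name from a gene count table, with Ensembl identifiers matched to symbols without regard to version. All 10 were found among 55401 identifiers, and all 10 were among the 22107 genes that passed the filter on low counts. The table covers RNA of hepatic T cells of adult C57BL/6 mice, CD3+ CD4- CD8-, called double negative T cells. Live CD45+ NK1.1- cells were sorted by flow cytometry into those with the γδ T cell receptor and those with the αβ receptor. There were 4 groups of 3 libraries: γδ with arachidonic acid (AA), γδ without AA, αβ with AA and αβ without AA. AA, a polyunsaturated fatty acid of cell membranes and the source of prostaglandins, was given for 48 h after the sort. The labels name no allele and no other agent. Nothing in them tells whether replicates are different animals, so the p-values here speak for the spread among libraries and no more. Nor is it said whether cells without AA spent the same time in culture, so AA and time in culture cannot be told apart.

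T cells need a costimulatory signal beside their antigen receptor, and most members of this group give or shape that signal. CD80 and CD86 bind CD28 and the inhibitory receptor CTLA-4, while PD-L1 (Cd274) and PD-L2 (Pdcd1lg2) bind PD-1. CD40 receives the signal of CD40 ligand from T cells and acts through TRAF adaptors and NF-κB, which raises CD80, CD86 and the IL-12 subunit p40 (Il12b) in dendritic cells, macrophages and B cells. CD83 marks mature dendritic cells and activated B cells, and IL-15 (Il15) keeps memory T cells and innate-like lymphocytes alive.

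Library totals ran from 6036487 to 30548253 counts, with 6036487 to 17021782 in αβ with AA and at least 18301268 in every other library. Counting error was therefore widest in αβ with AA, whose replicates also correlated least (r of log2 CPM 0.56 to 0.691, against 0.803 to 0.899 within the other groups). Trdc, the constant region of the δ chain, went against the labels of both libraries numbered 3 without AA. In CPM, a gene's count scaled by all counts of its library, Trdc read 208, 197 and 69.8 in γδ with AA and 246, 265 and 11.6 in γδ without AA. It read 55.4, 5.35 and 52.8 CPM in αβ with AA and 3.7, 5.9 and 201 CPM in αβ without AA, each in replicate order. The members' values that rest on these libraries are given below also without both of them. Trac, the constant region of the α chain, went against the labels with AA, at 380 to 694 CPM in γδ and 63.9 to 122 CPM in αβ. Without AA Trac stood at 120 to 475 CPM in γδ and 306 to 606 CPM in αβ. Trdc went with the labels with AA. Cd3d, Cd3e and Cd3g were lower in αβ with AA too. They averaged 76.3, 34.1 and 32.4 CPM there, against 190, 130 and 102 CPM in γδ with AA. Whether the labels with AA hold was not tested.

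Markers of the sort gate and of several other cell types were detected. The 6 genes of the gate were the T cell genes Cd3d, Cd3e, Cd3g, Trac and Trdc and the leukocyte gene Ptprc (CD45). They summed to 1229 to 2810 CPM in γδ with AA and 1939 to 2950 CPM in γδ without AA. In αβ they summed to 904 to 1017 CPM with AA and 1864 to 2085 CPM without AA. Ptprc alone averaged 1021, 1336, 713 and 1064 CPM in these groups in that order. The mean sums were 2129, 2418, 978 and 1950 CPM. The 7 B cell markers, all detected in each group, summed to 1321 to 3288, 1573 to 9130, 5583 to 16777 and 2302 to 12577 CPM in the same groups in that order. The 10 macrophage and monocyte markers summed to 8936 to 23169, 4027 to 36843, 6352 to 16307 and 1874 to 24558 CPM, with C1qc at 0 in γδ with AA and Clec4f at 0 in αβ without AA. Neutrophil markers summed to at most 2618 CPM, mast cell and basophil markers to at most 3290, endothelial markers to at most 160 and hepatocyte markers to at most 26.0 CPM in any library. In γδ with AA 4 of 5 hepatocyte markers, Cdh5, Lyve1 and Mcpt4 were at 0. Lyve1, Mcpt4 and Serpina1a were at 0 in γδ without AA, and Clec4g and Mcpt4 in αβ without AA. Among the macrophage markers Lyz2, the macrophage lysozyme, reached 35050 CPM. The 10 markers of mature dendritic cells, none at 0 in any group, summed to 7651 to 14579 CPM in γδ with AA, 813 to 2023 CPM in γδ without AA, 1397 to 3220 CPM in αβ with AA and 1121 to 3640 CPM in αβ without AA. Most of the γδ sum with AA was Ccr7, Apol7c, Serpinb9, Fscn1 and Ccl22, which averaged 3802, 2638, 1608, 1398 and 1221 CPM there. Ccl17, Il4i1 and Lamp3 averaged at most 3.3 CPM in any group, so the sums say little of them. The 10 general dendritic cell markers summed to 349 to 645, 335 to 523, 344 to 824 and 523 to 938 CPM, with the groups in the same order. Clec9a was at 0 in γδ with AA and Cd209a at 0 in γδ without AA. Most of these sums was Irf8, which averaged 339, 392, 447 and 738 CPM, so they say little of the other markers. In RNA from many cells, more cells of a type and more RNA per cell cannot be told apart.

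In γδ libraries with AA, Cd80, Cd86, Cd40, Il12b and Traf1 lay above every γδ library without AA, yet no member passed the test. All 10 members had a positive log2 fold change there, against 44.8% of all genes tested, and their median was 1.08 against -0.06. In αβ libraries 2 of 10 were positive, against 53.2% of all genes, with a median of -0.58 against 0.12. Group means were highest in γδ with AA for every member but Cd83 and Pdcd1lg2, whose means were highest in αβ without AA, and Il15, at 29.3 ± 14.2 CPM in γδ with AA and 29.4 ± 14.9 CPM in αβ with AA (SD, n = 3 each). The plot of CPM by library shows the members in all 12 libraries, and the plot of log2 fold changes sets the effects side by side.

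**Figure D1:**
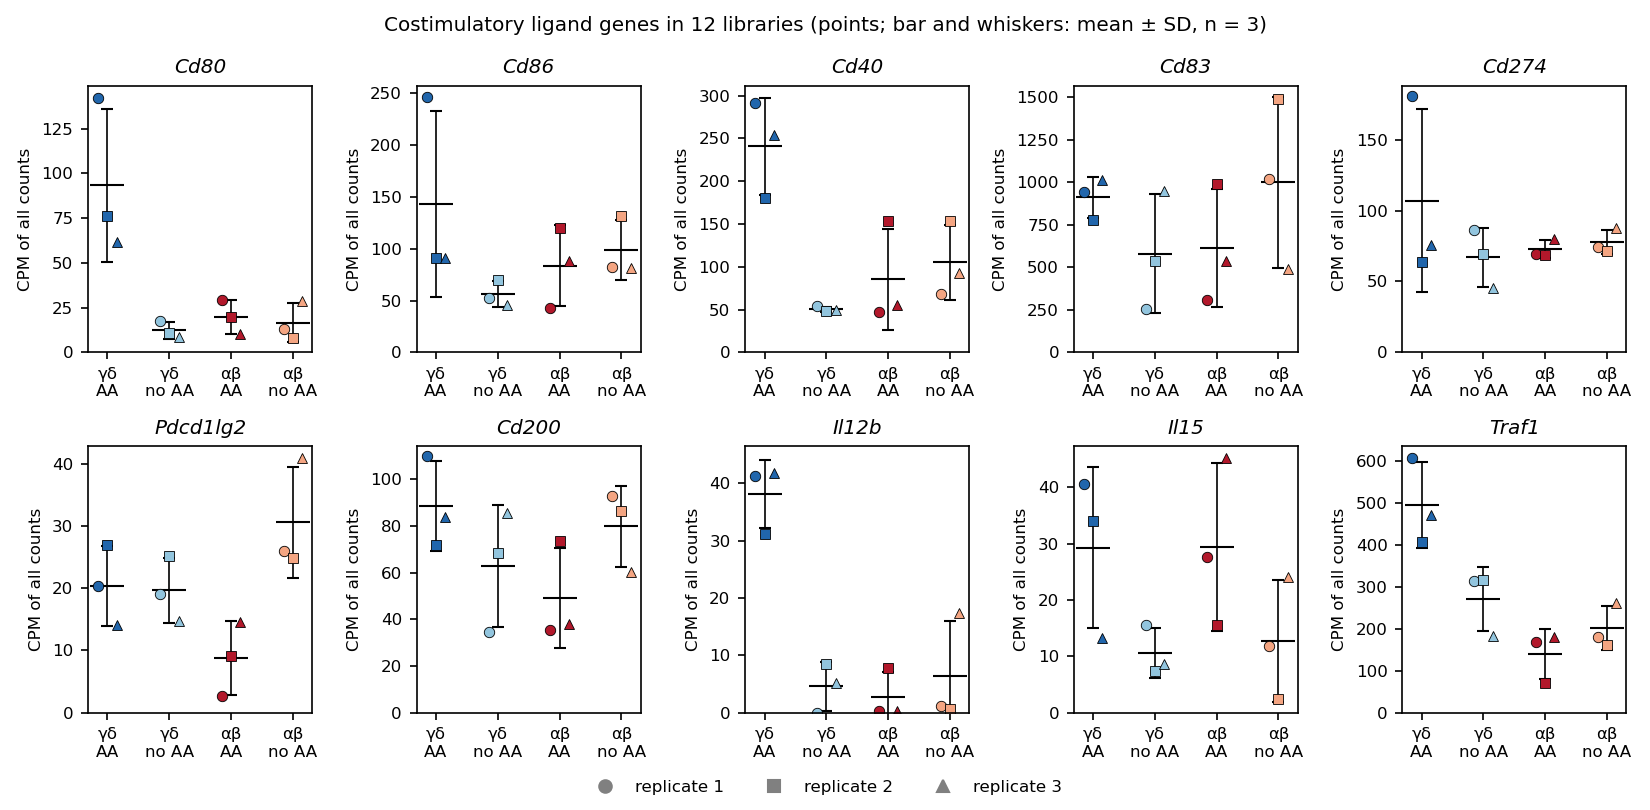
CPM of all counts (y axis, linear, from 0) of the 10 genes in each of the 12 libraries; marker shape gives the replicate, and bars with whiskers give mean ± SD (n = 3). The γδ libraries with AA lie apart from all others for Cd80 (61.7 to 142 CPM), Cd40, Il12b and Traf1.

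**Figure D2:**
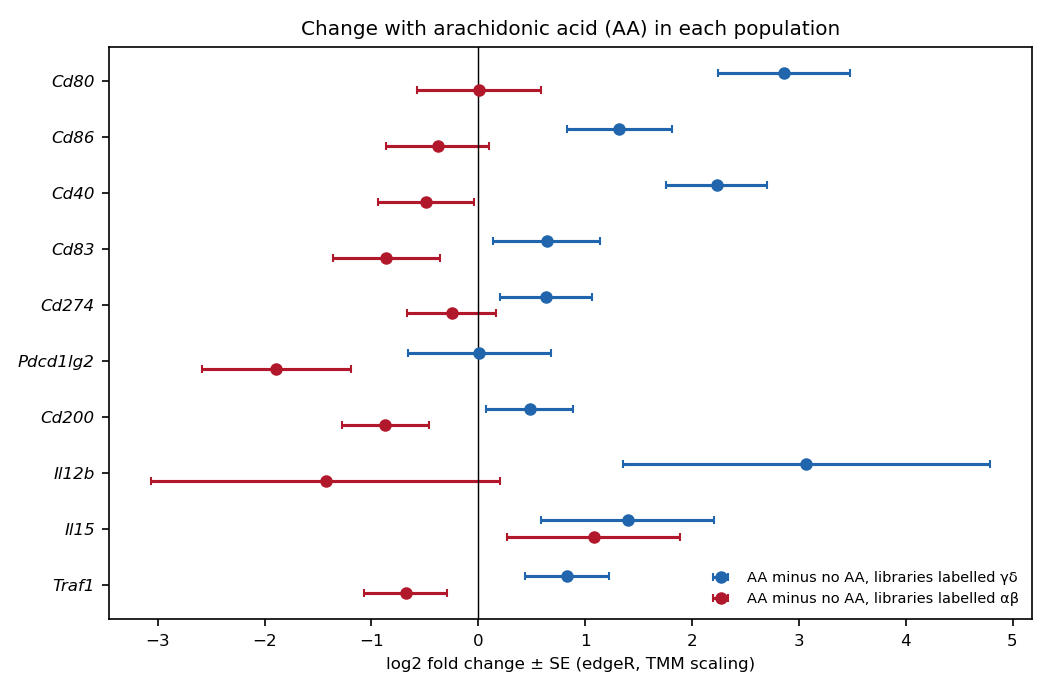
Log2 fold change (x axis) with AA over without AA, with its SE, for each gene in libraries labelled γδ (blue, upper point) and αβ (red, lower point). All 10 blue points are at or above 0, and the red points lie left of the blue ones for each gene.

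Promoter windows (RefSeq, build GRCm38.p6, 250 bases before the start site to 50 from it on) were found for 6 members: Traf1, Il12b, Cd80, Cd200, Cd274 and Pdcd1lg2. The windows of the 3 whose γδ libraries with AA stood apart from the rest are shown, 5′ to 3′ on the gene's strand, with motif matches in capitals.
Il12b, chr11:44399813-44400112, + strand: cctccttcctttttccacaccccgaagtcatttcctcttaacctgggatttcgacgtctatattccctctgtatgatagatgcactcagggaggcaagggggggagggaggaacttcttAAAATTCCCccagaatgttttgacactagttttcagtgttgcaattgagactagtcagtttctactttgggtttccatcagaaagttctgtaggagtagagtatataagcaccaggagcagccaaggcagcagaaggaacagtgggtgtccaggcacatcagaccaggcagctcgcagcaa
Cd80, chr16:38458683-38458982, + strand: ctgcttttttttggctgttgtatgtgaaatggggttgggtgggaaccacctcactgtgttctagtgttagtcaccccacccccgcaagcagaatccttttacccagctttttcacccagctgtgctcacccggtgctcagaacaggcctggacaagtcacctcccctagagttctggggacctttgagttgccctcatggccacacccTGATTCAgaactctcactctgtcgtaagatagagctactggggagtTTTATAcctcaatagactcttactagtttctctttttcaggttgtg
Traf1, chr2:34961723-34962022, - strand: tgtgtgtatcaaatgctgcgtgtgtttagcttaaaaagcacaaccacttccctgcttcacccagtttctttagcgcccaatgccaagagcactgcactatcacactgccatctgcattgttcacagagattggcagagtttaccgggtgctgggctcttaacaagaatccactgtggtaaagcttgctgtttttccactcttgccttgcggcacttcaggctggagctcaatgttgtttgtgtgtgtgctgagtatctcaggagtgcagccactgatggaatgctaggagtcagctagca
The capitals in Il12b are the κB half-site GGGAATTTT, read on the opposite strand, 131 bases before the start site. It occurred in 102 of 32851 windows (0.31%), and in none of the other 5 members' windows. Those in Cd80 are TGATTCA, 42 bases before the start site, and TATAAA on the opposite strand near the start site, held by 13.6% of windows. TGATTCA matches the pattern TGANTCA, searched for AP-1 with the centre base left free. The 7.81% of windows that hold this pattern thus include any centre base, and a match is not a strict AP-1 site. Both strands were searched, and the motifs do not overlap in these windows. The κB decamer, GGG and TTCC with 3 free bases between them (5.56% of windows), and the interferon response motif, GAAA and again GAAA with 2 free bases between them (3.44%), were in none of the 6 windows, and Traf1 held none of the 5 motifs. The motifs were picked after the Il12b window had been seen, and a match is a description of letters only.

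The B7 ligands Cd80 and Cd86 (both on chromosome 16) were set side by side first. Cd80 stood at 142, 76.1 and 61.7 CPM in γδ with AA, against 17.7, 10.7 and 8.58 CPM in γδ without AA. The αβ libraries had 29.0, 19.7 and 10.4 CPM with AA, against 13.2, 7.79 and 28.7 CPM without AA. The γδ libraries with AA were thus the 3 highest of the 12, while both αβ groups covered the same range. The log2 fold change with AA was 2.86 ± 0.62 (SE) in γδ, with an adjusted p of 0.266 (edgeR's quasi-likelihood test, Benjamini-Hochberg over all 22107 genes). In αβ it was 0.01 ± 0.58 by the same fit. Without both libraries labelled replicate 3 without AA the values were 2.59 in γδ and 0.62 in αβ.

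Cd86 stood at 247, 90.8 and 91.2 CPM in γδ with AA, against 52.7, 69.7 and 45.8 CPM in γδ without AA. In the αβ libraries the values were 42.9, 120 and 88.3 CPM with AA, against 82.5, 132 and 81.4 CPM without AA. The γδ groups did not overlap, but both αβ libraries numbered 2 lay above γδ replicates 2 and 3 with AA. With AA the log2 fold change was 1.32 ± 0.49 in γδ (adjusted p 0.635, edgeR) and -0.38 ± 0.48 in αβ (adjusted p 0.807). Without γδ with AA replicate 1, its highest library, the Cd86 value in γδ was 0.70. With both libraries labelled replicate 3 without AA left out, it was 1.14 in γδ and -0.53 in αβ.

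The ratio of the 2 B7 ligands within a library is free of the scaling between libraries. There were 0.576, 0.838 and 0.677 Cd80 counts per Cd86 count in γδ with AA, against 0.337, 0.154 and 0.187 in γδ without AA, with no overlap. The ratio was 0.676, 0.164 and 0.118 in αβ with AA, against 0.16, 0.059 and 0.352 in αβ without AA, so that 1 αβ library, replicate 1 with AA, reached the γδ range with AA on 261 Cd80 counts. The plot of ratios by library shows all 12.

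**Figure D3:**
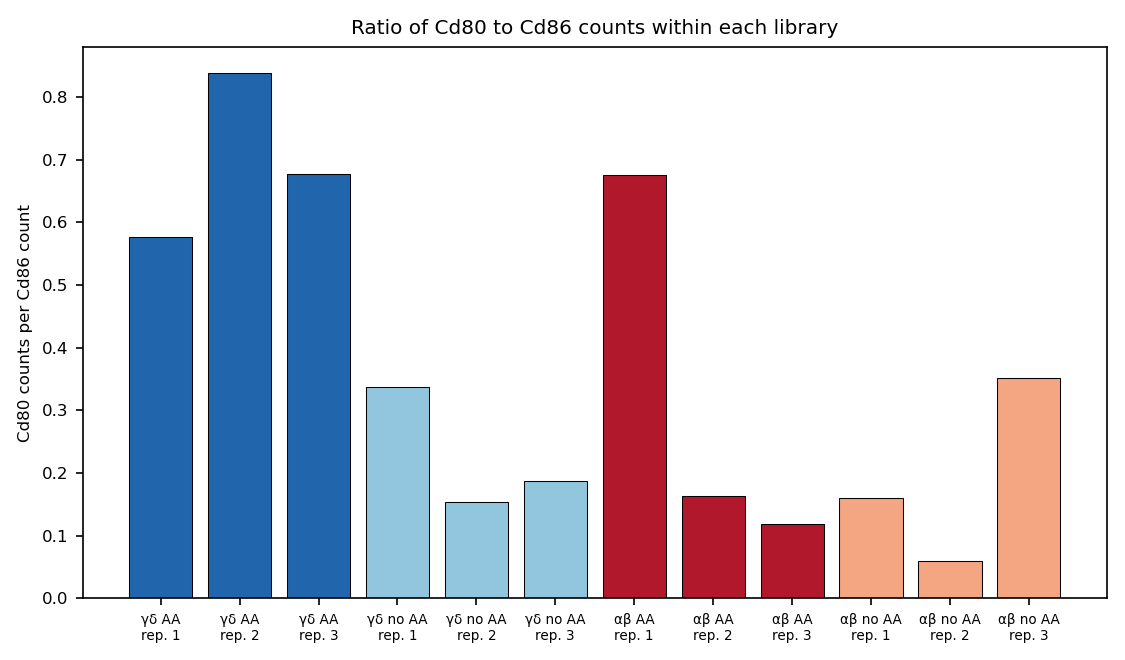
Cd80 counts per Cd86 count (y axis, from 0) in each of the 12 libraries, 1 bar per library. The 3 γδ libraries with AA run from 0.576 to 0.838 and the 3 without AA from 0.154 to 0.337, while αβ with AA replicate 1 stands at 0.676.

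The inhibitory ligands overlapped between the γδ groups. Cd274 (PD-L1) stood at 181, 63.6 and 75.8 CPM in γδ with AA, against 86.6, 69.2 and 45.1 CPM in γδ without AA. Values in αβ libraries were 69.4, 68.5 and 80.3 CPM with AA, against 74.6, 71.7 and 87.4 CPM without AA. Only γδ replicate 1 with AA stood apart, and without it the log2 fold change in γδ was 0.06 against 0.63 ± 0.43 with all libraries. Without both libraries labelled replicate 3 without AA it was 0.35 in γδ and -0.21 in αβ, against -0.25 ± 0.42 in αβ with all. Cd274 shares 511 bases of exon (14.1%) with AC119228.1 on the opposite strand, and since the use of strand in counting is not given in the sources used here, its counts are uncertain. The other 9 members overlap no annotated exon of another gene.

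Pdcd1lg2 (PD-L2) stood at 20.4, 26.9 and 14.1 CPM in γδ with AA, against 19.0, 25.2 and 14.8 CPM in γδ without AA. The αβ libraries with AA had 2.67, 9.05 and 14.6 CPM, against 26.0, 24.8 and 40.9 CPM in αβ without AA. The γδ groups covered the same range, and αβ with AA lay below αβ without AA in every library, on 24, 154 and 88 counts. With AA the log2 fold change was 0.01 ± 0.67 in γδ and -1.89 ± 0.70 in αβ (adjusted p 0.419, edgeR). Leaving out both libraries labelled replicate 3 without AA the values were -0.20 in γδ and -1.65 in αβ.

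Cd200, whose product restrains myeloid cells through the CD200 receptor, stood at 110, 72.0 and 83.7 CPM in γδ with AA, against 34.5, 68.3 and 85.7 CPM in γδ without AA. The αβ libraries had 35.3, 73.7 and 38.1 CPM with AA, against 93.0, 86.5 and 60.2 CPM without AA. Groups overlapped in both populations, at log2 fold changes of 0.48 ± 0.41 in γδ and -0.87 ± 0.41 in αβ. Leaving out both libraries labelled replicate 3 without AA neither pair of groups overlapped, at 0.72 in γδ and -1.08 in αβ (adjusted p 0.88 and 0.696, edgeR).

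Cd40, the receptor of the group, had the lowest unadjusted p of the members in γδ cells, 0.000298 by edgeR's test. It stood at 291, 180 and 254 CPM in γδ with AA, against 53.9, 48.2 and 49.0 CPM in γδ without AA, which is 241 ± 56.7 against 50.4 ± 3.05 (SD, n = 3 each). It stood at 47.4, 154 and 54.8 CPM in αβ with AA, against 68.3, 154 and 92.4 CPM in αβ without AA. Every γδ library with AA lay above all 9 others, and the αβ groups overlapped. The log2 fold change with AA was 2.23 ± 0.47 in γδ (adjusted p 0.235, edgeR) and -0.49 ± 0.45 in αβ (adjusted p 0.727). With any 1 library left out it lay between 2.11 and 2.35 in γδ and between -1.22 (replicate 2 with AA left out) and -0.03 (replicate 2 of the group without AA left out) in αβ. With both libraries labelled replicate 3 without AA left out it was 2.15 in γδ (adjusted p 0.873, edgeR) and -0.59 in αβ.

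Traf1, an adaptor that binds CD40 and other TNF receptors and is itself induced by NF-κB, stood at 608, 407 and 470 CPM in γδ with AA, against 314, 316 and 183 CPM in γδ without AA. In the αβ libraries the values were 168, 70.7 and 181 CPM with AA, against 181, 162 and 261 CPM without AA. The 3 γδ libraries with AA were again the highest of the 12, and 2 of the 3 γδ libraries without AA came next. It came to a log2 fold change of 0.83 ± 0.39 in γδ (adjusted p 0.635, edgeR) and -0.68 ± 0.39 in αβ. These were 0.56 and -0.51 without both libraries labelled replicate 3 without AA.

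Per length, in TPM (counts per exon length, scaled within a library), Cd83 had the highest mean level of the members in each group, at 1089 in γδ with AA, 666 in γδ without AA, 601 in αβ with AA and 1179 in αβ without AA. The order of the others differed between groups. Cd40 averaged 218 and Traf1 174 TPM in γδ with AA, against 43.0 and 89.8 TPM in γδ without AA. Il12b averaged 59.5 TPM in γδ with AA, above Il15 at 40.6 and Pdcd1lg2 at 32.3 TPM, against 7.13, 13.4 and 29.5 TPM in γδ without AA, where it had the lowest mean. Cd83 stood at 941, 779 and 1017 CPM in γδ with AA, against 257, 535 and 951 CPM in γδ without AA. Values in αβ libraries were 309, 992 and 536 CPM with AA, against 1023, 1493 and 488 CPM without AA. Both pairs of groups overlapped, and with both libraries labelled replicate 3 without AA left out neither did. The log2 fold change was then 1.14 in γδ, against 0.64 ± 0.50 with all libraries, and -1.22 in αβ, against -0.86 ± 0.50.

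Cd83 levels were set beside the B cell markers, since activated B cells carry CD83. The B cell sum was 12577 CPM in αβ without AA replicate 2, where Cd83 was highest, and 16777 CPM in αβ with AA replicate 2, the highest library of its group for Cd83. It was 9130 CPM in the replicate 3 library labelled γδ without AA, the highest of that group for Cd83. In γδ with AA the B cell sum was at most 3288 CPM while Cd83 was at least 779 CPM. The part of these markers in the Cd83 levels was not tested.

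The cytokine gene Il12b, which encodes the p40 chain shared by IL-12 and IL-23, stood at 41.2, 31.2 and 41.8 CPM in γδ with AA, against 0, 8.49 and 5.24 CPM in γδ without AA. The αβ libraries had 0.222, 7.75 and 0.331 CPM with AA, against 1.16, 0.614 and 17.4 CPM without AA. Its 731 to 785 counts in γδ with AA exceeded those of every other library, of which the highest, with 533 counts, was the replicate 3 library labelled αβ without AA. The library at 0, γδ without AA replicate 1, held 19327567 counts in all, which allows up to 0.155 CPM (3 counts, counting error only). The log2 fold change was 3.07 ± 1.72 in γδ (adjusted p 0.639, edgeR) and -1.43 ± 1.63 in αβ. Leaving out both libraries labelled replicate 3 without AA the αβ value was 1.48, with the sign reversed, and the γδ value was 3.16.

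Il12a, the p35 chain with which p40 forms IL-12, was low beside Il12b in γδ with AA. Il12a values were 5.35, 5.03 and 0 CPM in γδ with AA, against 9.21, 12.8 and 3.57 CPM in γδ without AA. In the αβ libraries the values were 0.667, 37.0 and 16.7 CPM with AA, against 8.79, 14.8 and 4.06 CPM without AA. Il23a, which joins p40 in IL-23, had 66 counts in 1 γδ library with AA and none in the other 5 γδ libraries.

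Il15 stood at 40.5, 34.0 and 13.3 CPM in γδ with AA, against 15.6, 7.45 and 8.67 CPM in γδ without AA. Values in αβ libraries were 27.6, 15.5 and 45.1 CPM with AA, against 11.8, 2.45 and 24.0 CPM without AA. Most libraries with AA lay above those without AA in both populations, although each pair overlapped through 1 library. Il15 and Cd80 were the members with a positive value in both, Il15 at 1.40 ± 0.81 in γδ (adjusted p 0.652, edgeR) and 1.08 ± 0.81 in αβ (adjusted p 0.667). Without both libraries labelled replicate 3 without AA Il15 was at 1.21 in γδ and 1.88 in αβ.

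The question of the design, which genes differ with AA, was answered for γδ cells by 0 of 10 members called, against 0.00905% of all genes (2 of 22107), by edgeR's quasi-likelihood test at an adjusted p under 0.05. At an unadjusted p under 0.05 there were 3 of 10 members, against 1600 of 22107 genes. DESeq2 called 2 members, Cd40 and Cd80, with 1.37% of genes called, and edgeR with no filter on low counts called the same 2, with 0.33% of genes called. Voom with quality weights called 0 of 10, with 0.095% of genes called. The groups did not overlap for 5 of 10 members with γδ with AA higher, against 5.19% of all genes, and for 0 of 10 with it lower, against 6.45%. Leaving out both libraries labelled replicate 3 without AA the 5 became 7, with Cd83 and Cd200 added, against 7.21% of all genes. The summed markers of mature dendritic cells were also higher in all 3 γδ libraries with AA, and their part in these values was not tested.

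In αβ cells edgeR called 0 of 10 members, against 0.0136% of all genes. At an unadjusted p under 0.05 there was 1 of 10 members, Pdcd1lg2, against 2264 of 22107 genes. DESeq2, voom and edgeR with no filter each called 0 of 10, with 1.95%, 0.276% and 0.597% of genes called. The groups did not overlap for 1 of 10 members with αβ with AA lower, against 7.97% of all genes, and for 0 of 10 with it higher, against 9.42%. Leaving out both libraries labelled replicate 3 without AA the count with αβ with AA lower was 3 (Cd200, Cd83 and Pdcd1lg2), against 11.7% of all genes. The summed genes of the gate were lower in all 3 αβ libraries with AA, at 904 to 1017 against 1864 to 2085 CPM without AA. None of the 6 had a positive log2 fold change. Trac averaged 84.2 against 475 CPM and Cd3e 34.1 against 85.4 CPM. The part of these genes was not tested.

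The AA effects in γδ cells minus those in αβ cells were positive for 10 of 10 members, against 48% of all genes, with a median of 1.60. They were 2.85 ± 0.83 for Cd80, 2.71 ± 0.64 for Cd40, 4.50 ± 2.36 for Il12b and 0.32 ± 1.13 for Il15. Without both libraries labelled replicate 3 without AA they were 1.97 for Cd80, 2.73 for Cd40, 1.68 for Il12b and -0.67 for Il15, and Cd83 was at 2.36, against 1.5 ± 0.70 with all. The other members were then at 1.66 (Cd86), 1.06 (Traf1), 1.80 (Cd200), 1.45 (Pdcd1lg2) and 0.56 (Cd274). With 1 library left out Il12b lay between 1.57, when the replicate 3 library labelled αβ without AA was out, and 7.82, when αβ with AA replicate 2 was out. By edgeR 0 of 10 passed, against 0% of all genes, and the lowest adjusted p, 0.442, belonged to Cd40 and Cd80. At an unadjusted p under 0.05 there were 5 of 10 members, against 2117 of 22107 genes. DESeq2 called 1 member, Cd40 (1.68% of genes called), edgeR with no filter 2, Cd40 and Cd83 (0.491%), and voom 0 of 10 (0%). B cell markers were highest in αβ with AA replicate 2, the deepest library of its group. Without that library edgeR called Cd40 with a log2 value of 3.44 and an adjusted p of 0.0266 (0.229% of genes called). The αβ libraries with AA then left, of 8988771 and 6036487 counts, had the lowest totals of the series.

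Between the populations with AA, γδ against αβ, the log2 fold change was positive for 10 of 10 members, against 45% of all genes, with a median of 1.10 against -0.19. Il15 was at only 0.03 ± 0.80, and 9 of 10 members were positive with size factors, library size alone or DESeq2. The log2 fold change was 1.91 ± 0.40 for Traf1, 2.41 ± 0.61 for Cd80, 1.62 ± 0.46 for Cd40 and 3.90 ± 1.79 for Il12b, at adjusted p of 0.102, 0.17, 0.202 and 0.265 by edgeR. These 4 members did not overlap between the groups, higher in γδ, against 7.36% of all genes, and 0 of 10 did so lower in γδ, against 11.9%. By edgeR 0 of 10 passed, against 0.0226% of all genes, with 5 of 10 members at an unadjusted p under 0.05 against 4081 of 22107 genes. DESeq2 called Cd40, Cd80 and Traf1 (9.53% of genes called), voom Traf1 (3.22%), and edgeR with no filter these 3 and Il12b (1.52%). Without αβ with AA replicate 2, 7 of 10 members did not overlap, against 14.5% of all genes, and edgeR called Cd40 at 2.35 with an adjusted p of 0.0287 (0.883% of genes called). Il12b was then at 7.22, on 2 counts in each αβ library left, which held 8988771 and 6036487 counts in all. In the same comparison with all libraries the median was 2.79 for mature dendritic cell markers and -2.23 for B cell markers. It was 1.82 for the genes of the gate, and the part of these lists was not tested. This comparison rests on groups whose Trac, at 380 to 694 CPM in γδ and 63.9 to 122 CPM in αβ, went against their labels. Their Trdc, at 69.8 to 208 CPM in γδ and 5.35 to 55.4 CPM in αβ, went with them.

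Between the populations without AA, γδ against αβ, 1 of 10 members was positive, Traf1 at 0.40 ± 0.39, against 46.1% of all genes. Cd40 and Cd86 did not overlap, lower in γδ at -1.09 ± 0.45 and -0.85 ± 0.48, against 4.15% of all genes lower and, with 0 of 10 members, 3.94% higher. By edgeR 0 of 10 passed, against 0% of all genes, with 1 of 10 members at an unadjusted p under 0.05, Cd40, against 729 of 22107 genes. DESeq2, edgeR with no filter and voom each called 0 of 10, with 0.373%, 0.0271% and 0% of genes called. This comparison rests on the libraries whose Trdc went against their labels. Without them 5 of 10 members were positive and 4 (Cd200, Cd40, Cd83 and Cd86) lay lower in γδ without overlap, against 20.3% of all genes.

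A list of 16 other ligands and partners, of which 15 were tested, had none called in any of the 5 comparisons by edgeR. Beside B7 and TNF family ligands it held Cd48, Pvr, Nectin2, Lgals9 and Icam1, of neither family, and Tnfrsf14, a TNF receptor. In γδ cells 6 of 15 were positive with AA, 3 not overlapping higher and 2 lower, against 5.19% and 6.45% of all genes, with a median of -0.09 after Tnfsf18, at 0 in γδ with AA, was set to its bound of 3 counts and Cd276, at 0 in both groups, was left out. Icosl, the ligand of ICOS, stood at 21.8 to 68.5 CPM in γδ with AA, against 12.6 to 16.6 CPM in γδ without AA (1.61 ± 0.67), and Icam1, the adhesion partner of LFA-1, stood at 216 to 491 against 117 to 191 CPM (1.02 ± 0.37). In αβ cells 6 of 15 were positive. Tnfsf4, which encodes OX40 ligand, stood at 0, 7.87 and 0 CPM in αβ with AA, against 61.8 to 81.2 CPM in αβ without AA (-4.90 ± 1.17, adjusted p 0.264, edgeR). Tnfsf8, which encodes CD30 ligand, stood at 0.556 to 4.31 against 26.1 to 38.1 CPM (-3.60 ± 1.04).

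The receptors and partners of these ligands, 20 of 20 tested, had none called. This list also held Cd40lg, the ligand of CD40. In αβ cells 3 of 20 were positive with AA and 6 lay lower without overlap, against 7.97% of all genes, with a median of -1.34, while in γδ cells 11 of 20 were positive with a median of 0.03. Tnfrsf18, which encodes GITR, stood at 8.61 to 12.5 CPM in αβ with AA, against 29.7 to 54.1 CPM in αβ without AA (-2.02 ± 0.54). Il2rg, the common γ chain of the IL-2 and IL-15 receptors, stood at 127 to 160 against 214 to 269 CPM (-0.98 ± 0.24). In γδ cells Il15ra, which presents IL-15, stood at 28.9 to 65.4 CPM with AA, against 0.334 to 16.4 CPM without AA (2.14 ± 1.03), and Rgmb, which can bind PD-L2, stood at 7.49 to 9.46 against 0 to 1.04 CPM (4.54 ± 2.03). The sum of the genes of the gate was also lower in αβ with AA, as given above, and its part was not tested.

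Genes of CD40 signalling and NF-κB numbered 20, all tested. In γδ cells 18 of 20 were positive with AA and 10 lay higher without overlap, against 5.19% of all genes, with a median of 0.79. In αβ cells 3 of 20 were positive with a median of -0.44, and none was called in any of the 5 comparisons. Mature dendritic cell markers summed to 7651 to 14579 CPM in γδ with AA, against 813 to 2023 CPM in γδ without AA. The genes of the gate summed to 904 to 1017 CPM in αβ with AA, against 1864 to 2085 CPM in αβ without AA. The part of either was not tested. Rel, an NF-κB subunit, stood at 322 to 543 CPM in γδ with AA, against 81.4 to 187 CPM in γδ without AA (1.86 ± 0.37, adjusted p 0.171, edgeR). Map3k14, the kinase NIK of the non-canonical route that CD40 uses, stood at 74.6 to 229 against 25.8 to 57.9 CPM (1.63 ± 0.49). In αβ cells the inhibitors Nfkbib and Nfkbia stood at 34.6 to 63.3 and 471 to 783 CPM with AA, against 101 to 125 and 826 to 1233 CPM without AA (-1.44 ± 0.32 and -0.98 ± 0.31).

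Of 12 cytokine genes of antigen-presenting cells, none was called, and 7 of 12 were positive in γδ cells with a median of 0.16. Ccl22, a chemokine of mature dendritic cells and macrophages, stood at 871 to 1578 CPM in γδ with AA, against 196 to 524 CPM in γδ without AA (1.88 ± 0.40, adjusted p 0.264, edgeR), and at 336 to 516 against 404 to 1021 CPM in αβ (-0.76 ± 0.39). Ccl17, a ligand of the same receptor, was low, with 4 counts in αβ with AA against 123 in αβ without AA. The 7 MHC class II genes, which present peptides to CD4 T cells, lay on the negative side in both populations. None of the 7 was positive with AA in either population, with medians of -0.74 in γδ and -0.75 in αβ, and none was called. H2-DMb1, a chaperone of peptide loading, stood at 56.7 to 107 CPM in γδ with AA, against 86.8 to 219 CPM in γδ without AA (-1.03 ± 0.50), and H2-DMa, its partner, at 80.9 to 156 against 93.6 to 256 CPM (-0.76 ± 0.50). In αβ cells H2-Aa, a chain of I-A, stood at 1325 to 4969 against 1529 to 7085 CPM (-0.95 ± 0.57), and H2-DMa at 153 to 454 against 180 to 610 CPM (-0.84 ± 0.50). B cell markers, whose cells carry MHC class II, had a median of -1.41 in γδ, at 1321 to 3288 CPM with AA against 1573 to 9130 CPM without AA. In αβ their median was -0.09 with 3 of 7 positive, at 5583 to 16777 CPM with AA against 2302 to 12577 CPM without AA. The part of these markers in the MHC class II values was not tested.

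**Figure D4:**
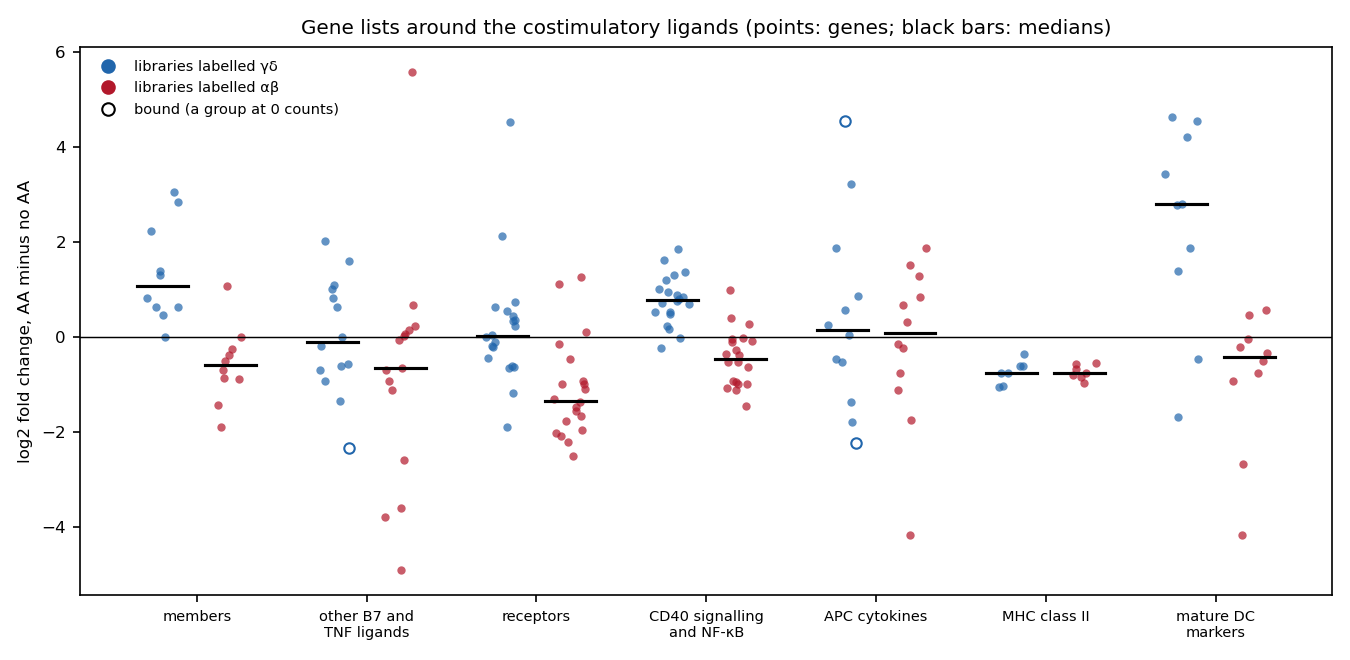
Log2 fold change with AA over without AA (y axis) for each gene of 7 lists, in libraries labelled γδ (blue, left) and αβ (red, right); black bars are medians, and open points are bounds for genes at 0 counts in a group. Medians in γδ are 1.08 for the members, 0.79 for CD40 signalling and NF-κB, -0.74 for MHC class II and 2.80 for markers of mature dendritic cells. The list of other B7 and TNF ligands also holds Cd48, Pvr, Nectin2, Lgals9, Icam1 and Tnfrsf14, and the list of receptors also holds Cd40lg.

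The 10 markers of mature dendritic cells had none called. In γδ cells 8 of 10 were positive with AA and 7 lay higher without overlap, against 5.19% of all genes, with a median of 2.80, and in αβ cells 2 of 10 were positive with a median of -0.42. Ccl17 and Il4i1 averaged lower in γδ with AA, at 1.21 and 1.07 CPM, against 1.63 and 3.3 CPM in γδ without AA. Ccr7, the receptor that leads mature dendritic cells and naive T cells to lymph nodes, stood at 4814, 2605 and 3986 CPM in γδ with AA, against 332, 888 and 425 CPM in γδ without AA (2.79 ± 0.44, adjusted p 0.105, edgeR). Fscn1, an actin bundler of mature dendritic cells, stood at 2445, 608 and 1142 CPM against 45.6, 155 and 26.1 CPM (4.21 ± 1.00, adjusted p 0.422). The same 2 genes were also higher in αβ with AA replicate 1 and in the replicate 3 library labelled αβ without AA, at 1103 and 1128 CPM of Ccr7 and 331 and 357 CPM of Fscn1, which were the highest αβ libraries for Cd80. Of the 10 general dendritic cell markers 6 were positive with AA in γδ, with a median of 1.41 and none called. There 3 lay higher without overlap and 1 lower, against 5.19% and 6.45% of all genes. Flt3 averaged 60.5 against 5.94 CPM, Zbtb46 35.5 against 5.65 and Batf3 21.1 against 4.0, while Itgax averaged 2.63 against 11.4 CPM. In αβ 8 of 10 were positive, with a median of 0.71. The part of either list in the members' values was not tested.

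**Figure D5:**
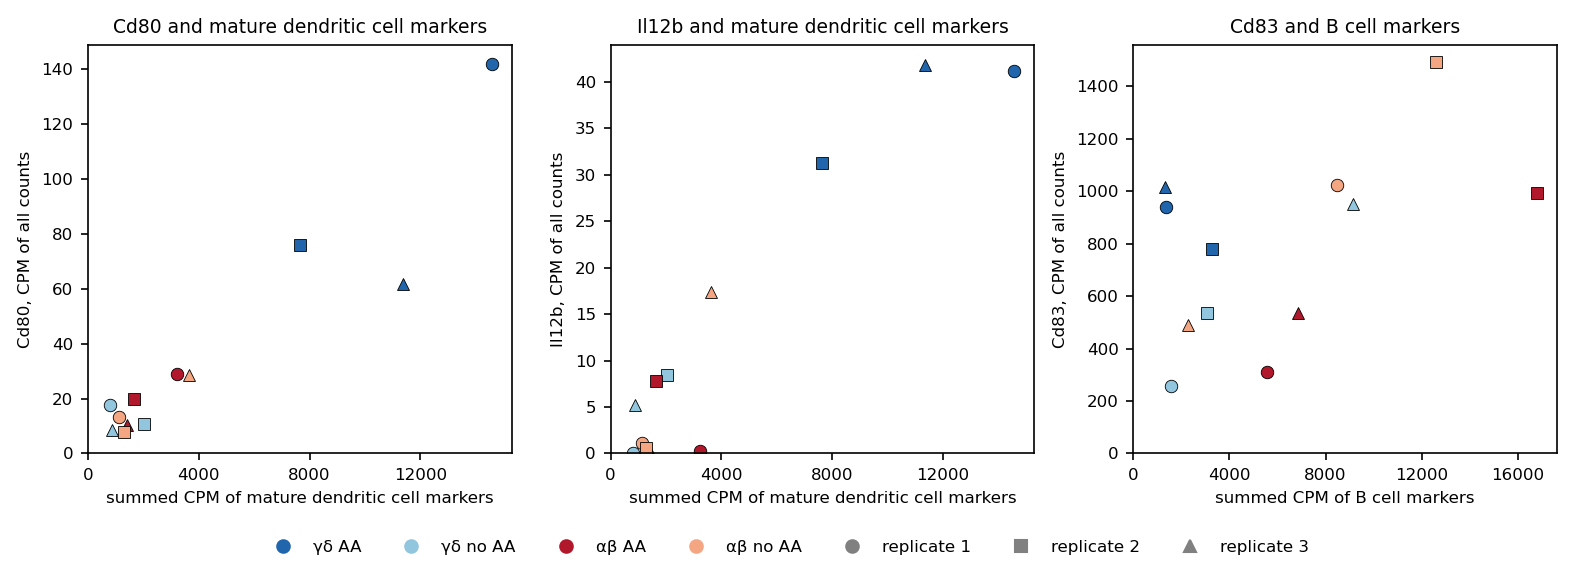
CPM of Cd80, Il12b and Cd83 (y axes, linear) against the summed CPM of mature dendritic cell markers (left and middle) or B cell markers (right), 1 point per library. The 3 γδ libraries with AA lie at 7651 to 14579 CPM of mature dendritic cell markers and at most 3288 CPM of B cell markers, and hold the highest Cd80 and Il12b.

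Likeness among the members was described over all libraries. Over the 12 libraries the Pearson r of log2 CPM was highest for Cd83 with Cd200 (0.88) and for Cd86 with Cd40 (0.81), and lowest for Cd83 with Il15 (-0.43). Cd80 had r of 0.70 with Cd40, 0.65 with Traf1 and 0.01 with Cd83. Among 10145 other genes with a mean of at least 5 CPM, the profiles most like the mean profile of the members were those of Dusp5 (r 0.94), Ptger4 (0.91), Chp1 (0.90), Tmem150c (0.89) and Relb (0.88). Dusp5 averaged 39.1 CPM in γδ with AA, 4.58 in γδ without AA, 3.41 in αβ with AA and 8.11 in αβ without AA. Ptger4, a receptor of prostaglandin E2, which is made from AA, averaged 124, 28.0, 31.2 and 47.2 CPM in the same groups. These correlations describe libraries that share groups and marker levels, and carry no p.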

How the data were processed

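RNA of 12 libraries was measured as raw counts of reads per gene, which the authors deposited in 1 table with no normalization. Per the submitters' processing notes, Bowtie 0.12.2 and the genome build mm8 were used; which program counted the reads, with what annotation and strand setting, is not given in the sources used here. Symbols came from GENCODE M21, which matched 55141 of 55401 identifiers without version and 54349 (98.1%) with version. M21 annotates GRCm38 and not mm8, so the identifiers and the build named in the notes are in conflict, which was not resolved. Libraries were grouped by their labels alone. The members, the gene lists and the motifs were chosen with earlier results of these data known.

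Genes were kept by filterByExpr of edgeR 4.0.16 (R 4.3.3, minimum count 10), scaled by TMM, and fitted over all 12 libraries (8 residual degrees of freedom), each group having its own mean. The quasi-likelihood test was adjusted by Benjamini-Hochberg over 22107 genes, with calls at an adjusted p under 0.05, and the common biological coefficient of variation was 1.21. CPM use all counts of a library, and TPM use exon lengths of GENCODE M21. Scripts were tested on simulated data with 200 genes changed. Groups that do not overlap were counted in CPM, as a description. All 10 members were named. From each pathway list the 2 genes with the smallest p in each AA comparison were named, since none was called, with the 5 genes whose profile was most like the members' and the checks Lyz2, Trdc, Ccr7 and Fscn1. Il12a, Tnfsf18, Cd276, Trac, Cd3d, Cd3e, Cd3g, Ptprc, Irf8, Flt3, Zbtb46, Batf3, Itgax, Apol7c, Serpinb9, Il4i1, Lamp3 and the genes at 0 were named after their values were seen.

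Alternatives were size factors of DESeq2 or library size alone as scaling, no filter, a filter of 5 CPM in 3 libraries, DESeq2 1.42.0 (an adjusted p of NA stays out), voom of limma 3.58.1 with quality weights, a replicate block, a fit of the compared groups only, neither library labelled replicate 3 without AA, and each library left out. Those for counts of groups that do not overlap were added after the data were seen.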

Additional observations from a re-analysis of the deposited data

How the results depend on the processing

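Of 1040 values recomputed under another setting, 984 kept direction and side of the threshold, 39 changed sign and 17 passed the threshold only there. The main fit, edgeR with the filter and TMM on all 12 libraries, called no member, so no call could be lost. For calls among the members, edgeR with no filter gave 2 for AA in γδ, 2 for the difference of AA effects and 4 for γδ against αβ with AA, and DESeq2 gave 2, 1 and 3. Voom gave 1 for γδ against αβ with AA, and leaving out 1 library gave 0 to 1 for that comparison and for the difference. For members without overlap, leaving out 1 library gave 4 to 7 for γδ against αβ with AA (9.98% to 14.5% of all genes), 1 to 4 for AA in αβ, lower (10.4% to 18.3%), and 2 to 4 for γδ against αβ without AA, lower (6.14% to 12.9%). Without both libraries labelled replicate 3 without AA the last 2 counts were 3 (11.7%) and 4 (20.3%). With TMM-scaled CPM the counts were 5 for AA in γδ (4.86%), 5 for γδ against αβ with AA (9.1%), 1 for AA in αβ (10.9%) and 3 for γδ against αβ without AA (5.19%).

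Signs changed as follows, and the cause was not tested. For AA in αβ, Il12b was 1.48 without both libraries labelled replicate 3 without AA and -4.75 to 1.51 with 1 library left out. Cd80 was -0.10 with no filter, -0.02 with the replicate block and -0.25 to 0.76 with 1 library left out, and Cd86 was -0.71 to 0.01. Cd274 was 0.15 with size factors, 0.02 with the stricter filter and 0.15 with DESeq2. For AA in γδ, Pdcd1lg2 was -0.20 without both those libraries and -0.27 to 0.25 with 1 left out. For the difference, Il15 was -0.06 with size factors, -0.05 with DESeq2, -0.67 without both those libraries and -0.59 to 0.79 with 1 left out. For γδ against αβ without AA and without both those libraries, Il12b was 2.13, Il15 0.70, Cd80 0.42 and Cd274 0.06. With 1 left out Il12b was -1.37 to 2.33, Il15 -0.77 to 0.59 and Cd80 -0.84 to 0.23, and Il15 was 0.36 with voom. For γδ against αβ with AA, Il15 was -0.31 with size factors, -0.25 with the stricter filter, -0.31 with DESeq2, -0.22 with the compared groups only and -0.31 to 0.51 with 1 left out.

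With size factors the all-gene median for AA in αβ was 0.50, against 0.12 with TMM, so signs there are relative to the scaling. Replicate numbers are shared by the groups, but same-numbered libraries deviated together (r above 0.1) in 3 of 18 pairs, with r from -0.182 to 0.137, so the numbers were not taken to pair samples. With the replicate block 0 members were called in all 5 comparisons. Depth was lowest in αβ with AA, where low genes are least certain.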
